A study of Homo sapiens with 6 samples.

Results

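The genes described here encode parts of the primary cilium and the centrosome. They were chosen by name alone: every gene on the array whose symbol begins with IFT (intraflagellar transport), BBS (Bardet-Biedl syndrome) or CEP (centrosomal protein) followed by a number, pseudogenes left out. This gave 59 members of the 14884 named genes in the table, 16 IFT, 8 BBS and 35 CEP genes. Of the 65 protein-coding genes with such symbols in RefSeq, the other 6 are not analysed here.

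The cells were SKOV3, an established human ovarian cancer line, kept in McCoy's 5A medium with 15% fetal bovine serum in 96-well plates. Control cells grew attached (2D, 3 arrays), with no FP001 named in their titles; the protocol gives Milli-Q water as its alternative. The other cells grew in low-attachment plates with FP001 at 0.015% (w/v) (3D, 3 arrays). FP001 is known here only by this code name, and attachment and additive changed together. Both groups were collected after 11 days. The comparison asked how expression differs under the 3D method. Nothing in the labels says that the 3 samples of a group were separate cultures, so the p-values speak of the spread among these arrays alone, and that spread may be technical.

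The primary cilium is a single antenna-like projection that most cells can build when they leave the cell cycle. It grows from the mother centriole, the older of the centrosome's paired centrioles, which docks at the membrane by its distal appendages. Intraflagellar transport trains carry material along the microtubule core: IFT-B complexes travel outward with kinesin-2, and IFT-A complexes return with dynein-2 and help membrane proteins to enter. The BBSome, an octamer built largely of BBS proteins, moves receptors out of the cilium. Before division the cilium is taken down, and the centrioles, copied once per cycle by a machinery that includes many CEP proteins, organise the spindle poles.

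Values are log2 RMA values of 1 probe set per gene, and a change is the 3D mean minus the 2D mean. Levels of different genes cannot be ranked on this scale, because each probe set has its own brightness. Array medians over all 53617 probe sets ran from 4.30 to 4.37. Arrays of the 2D group correlated at 0.991 to 0.993 across genes. In 3D, replicates 2 and 3 correlated at 0.995, and 3D replicate 1 stood apart from them at 0.988. Of 9 listed markers of SKOV3 and ovarian carcinoma epithelium 6 were measured, all above the mean lower quartile of the probe sets (2.93), among them PAX8 (10.18 in 2D and 10.34 in 3D) and KRT18 (9.61 and 10.05). Of these 6, the adhesion gene EPCAM rose (change 1.76, adjusted p = 0.000159) and the keratin gene KRT7 fell (-0.93, adjusted p = 0.00532).

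Markers of cell types that a pure line should lack were read as well. Of 6 leukocyte markers 3 were measured, and CD68 (change 0.68) and LYZ (1.83) rose while CD14 gave -0.41. CD68 already read 9.06 in 2D, against 9.75 in 3D. LYZ had 2 probe sets, and the change of their mean was smaller (1.06). The summed level of the 3 markers ran from 16.04 to 16.46 in 2D and from 17.68 to 19.21 in 3D. Of 5 endothelial markers 4 were measured and PECAM1 rose (1.27). The other 3, KDR (-0.11), TIE1 (-0.089) and VWF (-0.043), lay slightly below 0 and did not pass. Summed levels were 17.09 to 17.20 in 2D and 17.50 to 18.82 in 3D. The 1 fibroblast marker measured, DCN, read 2.45 and 2.57, under the lower quartile. The part of these markers in the results that follow was not tested. In bulk RNA, fewer cells expressing a gene and less RNA per cell cannot be told apart.

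Most cilium and centrosome genes differed little between 2D and 3D. CEP290, CEP89, CEP95 and BBS5 fell in 3D by 0.47 to 0.63 on the log2 scale, and 0 of the 59 members rose (limma, adjusted p under 0.05). CEP290 is a scaffold of the ciliary transition zone, CEP89 a distal appendage protein of the mother centriole, BBS5 a lipid-binding subunit of the BBSome and CEP95 a centrosomal protein of less defined role. The 4 are 6.78% of the members. Over all genes tested 10.0% changed, 4.77% lower and 5.23% higher in 3D, so the share that fell was near the background and the share that rose was below it. At an unadjusted p under 0.05 there were 17 members, 15 lower and 2 higher (28.8%, against 23.5% of all genes in either direction). All 14884 genes were divided about evenly, with 1777 lower and 1716 higher. The lean of the members to lower values was not tested. No member reached an absolute change of 1, a size that 2.95% of all genes reached.

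**Figure D1:**
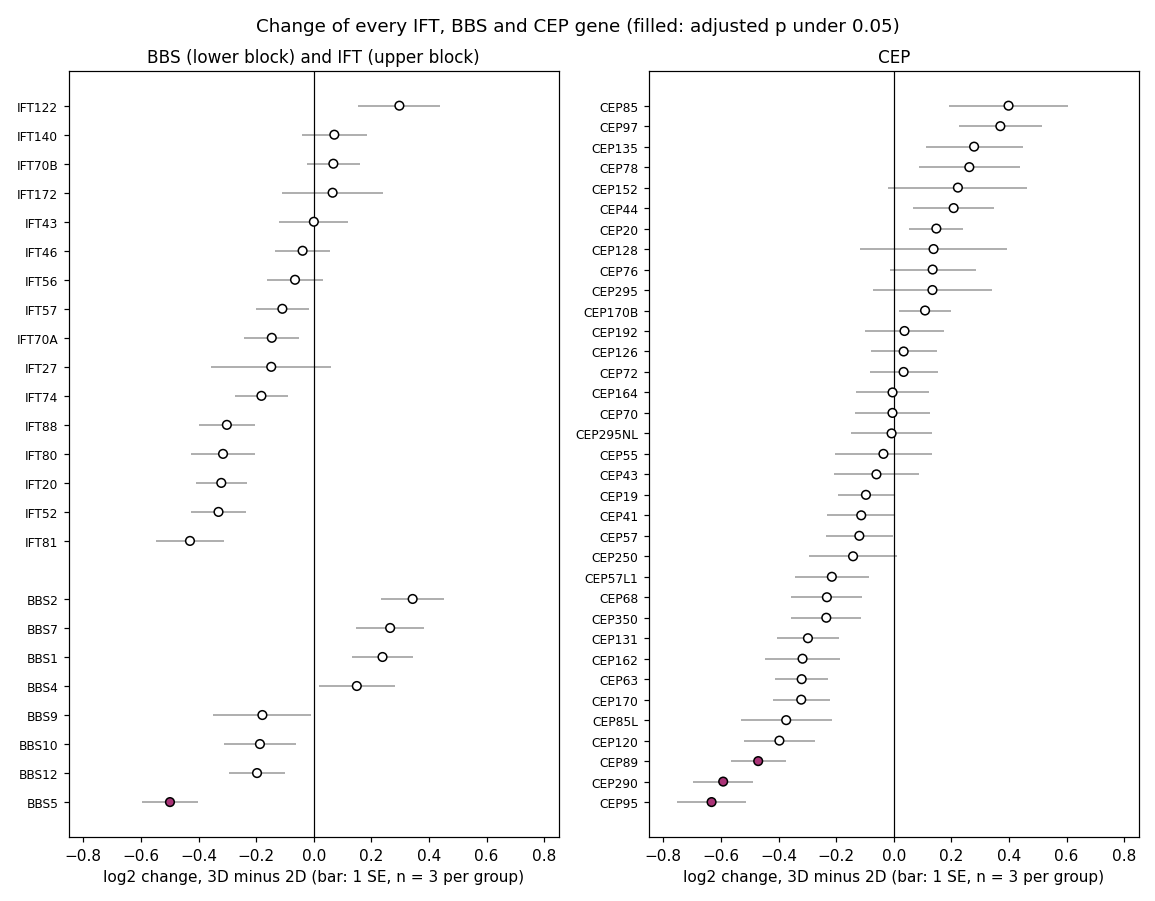
Log2 change (3D minus 2D, horizontal axis) of each of the 59 genes, with BBS and IFT genes on the left and CEP genes on the right; bars are 1 SE (n = 3 arrays per group) and filled points passed an adjusted p of 0.05 (limma). The filled points are CEP95, CEP290, CEP89 and BBS5, all left of 0, and the changes run from -0.63 (CEP95) to 0.40 (CEP85).

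The 3D values of CEP290 were 7.30, 7.18 and 7.25, against 7.99, 7.73 and 7.79 in 2D. The groups did not overlap, and the means were 7.24 ± 0.06 in 3D and 7.84 ± 0.14 in 2D (SD, n = 3). The change was -0.59 ± 0.10 (SE), a 1.51-fold difference with an adjusted p of 0.0112. CEP290 mutations are known as a cause of Joubert syndrome and Leber congenital amaurosis. Its binding partner IQCB1, of the transition zone list below, gave a change of -0.54 ± 0.12 (adjusted p = 0.03).

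For CEP89 the 3D arrays read 8.18, 8.16 and 8.22 and the 2D arrays 8.77, 8.56 and 8.64. The 3D values lay close together and below every 2D value, and the change was -0.47 ± 0.10 (SE, n = 3, adjusted p = 0.0212). CEP95 gave 8.33, 8.53 and 8.39 in 3D and 8.94, 8.95 and 9.25 in 2D. This was the largest change of any member, -0.63 ± 0.12 (1.55-fold, adjusted p = 0.0154), and 2D replicate 3 was the highest array. BBS5 gave 6.83, 6.91 and 6.77 in 3D and 7.22, 7.35 and 7.44 in 2D, without overlap, and changed by -0.50 ± 0.10 (adjusted p = 0.0191).

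These calls lay close to the threshold. Without 3D replicate 1, the array that stood apart, all 4 genes remained called, and 5.40% of all genes were called lower. CEP290 lost its call without 3D replicate 2 (adjusted p = 0.0541) and CEP95 without 3D replicate 3 (0.0647). BBS5 lost it without replicate 2 or 3 of either group (up to 0.0835), and CEP89 without 2D replicate 1 or 3 or 3D replicate 2 or 3 (up to 0.0884). Fewer of all genes were called lower in the fits that lost a call, from 2.34% (without 3D replicate 2) to 2.96% (without 2D replicate 1).

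**Figure D2:**
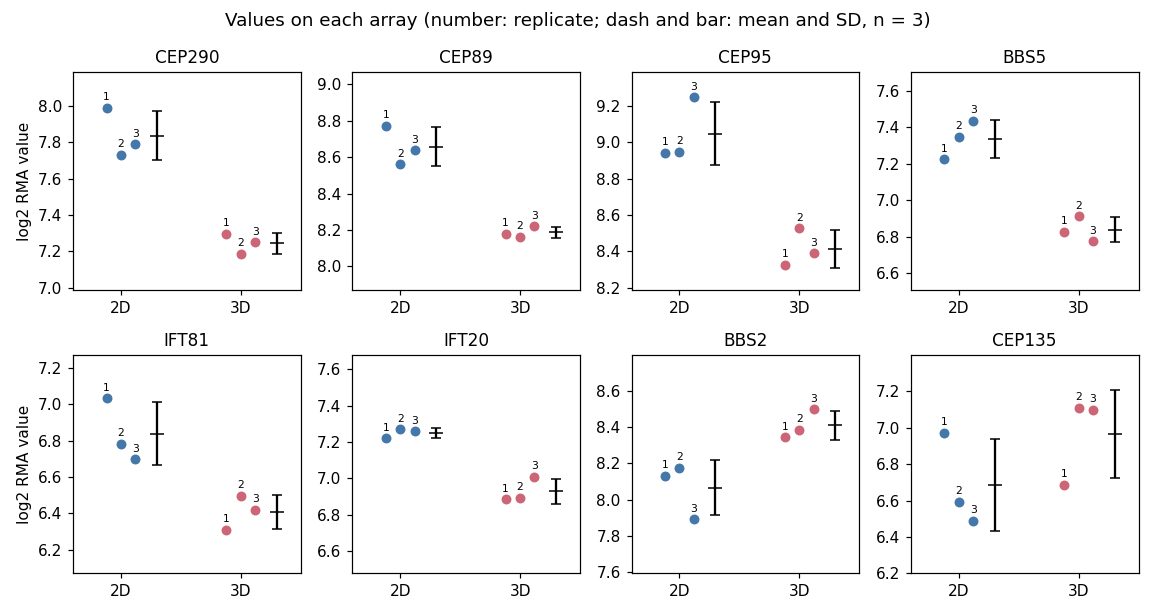
Log2 RMA value (vertical axis, a span of 1.2 in every panel) on each array for 8 genes, with blue points for 2D and red points for 3D, the replicate number beside each point, and a dash and bar for the mean and SD (n = 3). For CEP290, CEP89, CEP95, BBS5, IFT81 and IFT20 every 3D point lies below every 2D point, for BBS2 every 3D point lies above, and for CEP135 the groups overlap, with 2D replicate 1 high and 3D replicate 1 low.

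The promoters of the 4 genes that fell are shown because these were the members that passed the test. They are RefSeq sequences (GRCh38.p14), 300 bases each, from 250 bases before the transcript start to 50 after it, read 5′ to 3′ on the gene's strand. Promoters were found for 54 of the 59 members. Capitals mark GTTGCC, a half-site of the X-box that RFX factors of ciliary genes bind, and TTTGAA, the core of the cell cycle element CHR, searched on both strands. The regions are chr12:88142039-88142338 (minus strand) for CEP290, chr19:32971909-32972208 (minus) for CEP89, chr2:169479244-169479543 (plus) for BBS5 and chr17:64506727-64507026 (plus) for CEP95.
CEP290: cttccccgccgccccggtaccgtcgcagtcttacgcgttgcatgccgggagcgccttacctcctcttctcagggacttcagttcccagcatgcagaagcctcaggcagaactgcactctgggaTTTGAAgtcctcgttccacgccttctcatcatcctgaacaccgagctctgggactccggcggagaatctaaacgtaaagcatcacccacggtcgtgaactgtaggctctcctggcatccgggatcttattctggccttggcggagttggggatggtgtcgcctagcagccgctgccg
CEP89: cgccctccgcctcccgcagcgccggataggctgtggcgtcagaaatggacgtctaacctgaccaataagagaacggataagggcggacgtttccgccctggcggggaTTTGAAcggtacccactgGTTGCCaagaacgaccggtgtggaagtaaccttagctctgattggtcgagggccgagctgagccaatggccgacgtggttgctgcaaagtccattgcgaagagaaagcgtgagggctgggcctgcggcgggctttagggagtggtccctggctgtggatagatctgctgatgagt
BBS5: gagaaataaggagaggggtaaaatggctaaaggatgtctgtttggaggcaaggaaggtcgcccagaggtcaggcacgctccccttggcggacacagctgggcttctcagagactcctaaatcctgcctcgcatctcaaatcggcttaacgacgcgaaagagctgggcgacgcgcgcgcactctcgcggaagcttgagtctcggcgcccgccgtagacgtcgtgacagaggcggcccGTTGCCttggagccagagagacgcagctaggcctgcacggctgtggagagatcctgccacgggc
CEP95: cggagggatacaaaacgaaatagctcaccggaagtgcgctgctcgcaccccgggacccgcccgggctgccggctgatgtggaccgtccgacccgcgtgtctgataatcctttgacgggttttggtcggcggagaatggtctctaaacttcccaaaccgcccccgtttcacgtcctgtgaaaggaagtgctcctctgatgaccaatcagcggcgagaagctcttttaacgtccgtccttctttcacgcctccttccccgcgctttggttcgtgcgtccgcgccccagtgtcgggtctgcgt

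Counted from the transcript start, the half-site began at position -14 in BBS5 and -125 in CEP89. TTTGAA began at -127 in CEP290 and -143 in CEP89, and CEP95 held neither run of letters. Over members with a promoter, GTTGCC was present in 21 of 54 genes (38.9%) and TTTGAA in 17 (31.5%). Over the 10749 tested genes with a promoter the shares were 16.7% and 15.3%, and over all 35116 promoters of this length 12.2% and 15.2% of promoters. A match describes the letters only, and no enrichment was tested.

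Among the IFT genes, 11 of 16 had a change below 0 (68.8%, against 51.3% of all genes) and none passed the test. At an unadjusted p under 0.05 (limma) 5 were lower and 0 higher (31.2%, against 23.5% of all genes in either direction). Over all genes 1777 were lower and 1716 higher. The median change was -0.13, against -0.0074 over all genes. Among the members the lower values lay in IFT-B, the outward-moving complex. Its 13 member genes had a median of -0.15, and the 3 IFT-A members had a median of 0.07. IFT-A subunits outside the symbol rule, WDR35 (-0.56), WDR19 (-0.29) and TTC21B (-0.18), also lay below 0, so lower values were not confined to IFT-B. Relative to each gene's own mean, the IFT-B average was 0.08, 0.09 and 0.08 on the 2D arrays and -0.09, -0.12 and -0.05 on the 3D arrays, and these did not overlap.

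IFT81, which with IFT74 binds tubulin cargo, read 6.31, 6.50 and 6.42 in 3D and 7.03, 6.78 and 6.70 in 2D. Its change of -0.43 ± 0.12 (SE, n = 3) had an adjusted p of 0.0614, and the groups did not overlap. IFT20, which also works at the Golgi in sorting ciliary membrane proteins, read 6.88, 6.89 and 7.01 in 3D and 7.22, 7.27 and 7.26 in 2D, a change of -0.32 ± 0.09 (adjusted p = 0.064). IFT52, a core subunit, read 8.61, 8.59 and 8.62 in 3D and 8.81, 9.03 and 8.99 in 2D (-0.33 ± 0.10, adjusted p = 0.0758). For these 3 genes every 3D array lay below every 2D array. They passed the threshold with a filter on dim probe sets and with a trended robust variance, and IFT81 also after repeated quantile normalization. With the filter and the trended variance more of all genes were called lower too (8.14% and 6.41%, against 4.77%). IFT81, IFT20 and IFT52 did not pass with any single array left out (limma, adjusted p up to 0.16, 0.208 and 0.222). With the replicate number as a block they did not pass either (0.167, 0.178 and 0.189).

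The 3D arrays lay below all 2D arrays also for IFT80 (-0.32), IFT88 (-0.30), mutation of which causes polycystic kidneys in mice, and IFT74 (-0.18). Changes closer to 0, with overlapping groups, were found for IFT27 (-0.15), a small GTPase, IFT70A (-0.15), IFT57 (-0.11), IFT56 (-0.065), IFT46 (-0.039), IFT172 (0.065) and IFT70B (0.068). IFT70A and IFT70B are near-identical copies, so their values may share signal. The second, dimmer probe set of IFT70A gave the same change as the first to 2 decimals (-0.15).

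In IFT-A the changes were 0.30 for IFT122, 0.07 for IFT140 and 0.00 for IFT43, with overlapping groups. IFT122 read 6.93, 7.10 and 7.23 in 3D and 6.98, 6.86 and 6.53 in 2D (0.30 ± 0.14 SE, adjusted p = 0.264). The IFT-A subunit WDR35 lies outside the symbol rule and fell, from 7.94 ± 0.03 to 7.38 ± 0.07 (SD, n = 3), a change of -0.56 ± 0.09 (SE, adjusted p = 0.00808). The other IFT-A subunits outside the rule, WDR19 (-0.29 ± 0.14, adjusted p = 0.275) and TTC21B (-0.18 ± 0.19, adjusted p = 0.649), did not pass.

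The full X-box was searched as GTNNCCNNNGNNAC on both strands, a pattern that can contain the half-site above. It was found in 10 of 54 members (18.5%), in 6.95% of tested genes with a promoter and in 4.82% of all promoters of this length. By family these were 5 of 16 IFT genes, 1 of 7 BBS genes and 4 of 31 CEP genes. The IFT matches show which transport genes carry the pattern, and that of CEP135, a centriole duplication gene, is given beside them. All are shown with 12 flanking bases on each side and the match in capitals. They are read on the gene's strand, and IFT80 holds the pattern only as its reverse complement.
IFT70A: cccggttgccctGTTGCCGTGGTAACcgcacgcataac
IFT70B: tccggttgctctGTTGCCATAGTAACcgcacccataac
IFT56: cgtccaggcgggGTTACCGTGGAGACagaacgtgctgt
IFT57: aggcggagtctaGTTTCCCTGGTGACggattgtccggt
IFT80: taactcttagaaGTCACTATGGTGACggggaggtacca
CEP135: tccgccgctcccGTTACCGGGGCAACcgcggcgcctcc

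The windows lie at chr2:177618715-177618752 (IFT70A, minus strand), chr2:177552777-177552814 (IFT70B, minus), chr7:139133752-139133789 (IFT56, plus), chr3:108222429-108222466 (IFT57, minus), chr3:160399187-160399224 (IFT80, minus) and chr4:55948876-55948913 (CEP135, plus), in GRCh38.p14. The windows of IFT70A and IFT70B are nearly the same letters, as the genes are copies. The other members with a match were CEP19, CEP85, CEP192 and BBS7. None of the 10 passed the expression test, and their changes ran from -0.32 (IFT80) to 0.40 (CEP85).

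The 8 BBS genes were evenly divided, 4 below and 4 above 0, with a median of -0.015. BBS5 fell, as given above, and the other 7 did not pass. Of the BBSome subunits, BBS2 read 8.34, 8.39 and 8.50 in 3D and 8.13, 8.17 and 7.89 in 2D, with no overlap and a change of 0.34 ± 0.11 (SE, n = 3, adjusted p = 0.101). BBS1, one of the genes most often mutated in Bardet-Biedl syndrome, also had all 3D arrays above the 2D arrays (7.36, 7.61 and 7.64 against 7.34, 7.27 and 7.27; 0.24 ± 0.11, adjusted p = 0.231).

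BBS7 (0.27 ± 0.12) and BBS4 (0.15 ± 0.13) had overlapping groups, as did BBS9 (-0.18 ± 0.17). BBS10 (-0.19 ± 0.12) and BBS12 (-0.20 ± 0.10), chaperonin-like proteins that help to assemble the BBSome, lay below 0. Subunits of 1 complex thus gave values on both sides of 0, from -0.50 for BBS5 to 0.34 for BBS2. Without 3D replicate 1 the median of the BBS genes was 0.09.

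The 35 CEP genes had a median of -0.036, with 21 changes below 0 (60%, against 51.3% of all genes). CEP290, CEP89 and CEP95 fell, and 32 did not pass. By role, the 3 genes of the transition zone and axoneme all lay below 0: CEP290, CEP162 (-0.32 ± 0.13 SE, adjusted p = 0.197) and CEP41 (-0.11), which is needed for glutamylation of ciliary tubulin.

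Of 6 genes of the mother centriole appendages and their anchors, 5 lay below 0 (83.3%, against 51.3% of all genes). CEP89 fell. CEP170, a subdistal appendage protein, gave -0.32 ± 0.10 (adjusted p = 0.0905) with all 3D arrays below 2D. Its pseudogene CEP170P1, a near-identical copy, gave -0.44 (adjusted p = 0.0723), and the copies may share signal, which was not tested. CEP350 (-0.23) and CEP19 (-0.096) had overlapping groups. CEP164, the distal appendage protein that recruits the kinase TTBK2 to start ciliogenesis, gave -0.0041 ± 0.13 (adjusted p = 0.991). CEP128 gave 0.14 ± 0.25.

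The 13 genes of centriole duplication and length had a median of 0.14, and none passed. At an unadjusted p under 0.05 (limma) 2 were lower and 1 higher (23.1%, against 23.5% of all genes). CEP85 (0.40 ± 0.21 SE, adjusted p = 0.304) and CEP97 (0.37 ± 0.14, adjusted p = 0.172), which with CCP110 caps the growing end of centrioles, were the highest. CEP135, of the centriole wall, read 6.69, 7.11 and 7.10 in 3D and 6.97, 6.59 and 6.49 in 2D (0.28 ± 0.17, adjusted p = 0.39). The groups overlapped because 3D replicate 1 was low and 2D replicate 1 high.

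CEP152, which with CEP63 brings the duplication kinase PLK4 to the centriole, gave 0.22 ± 0.24, and CEP192, its partner in that step, 0.0375 ± 0.14. CEP78 (0.26), CEP44 (0.21), CEP76 (0.14) and CEP295 (0.13) lay above 0 as well, each with overlapping groups. In the other direction CEP120, which promotes centriole elongation, read 6.62, 6.54 and 6.79 in 3D and 7.24, 6.91 and 6.98 in 2D (-0.40 ± 0.12, adjusted p = 0.0924). CEP63 gave -0.32 ± 0.09 (adjusted p = 0.0728), and both CEP120 and CEP63 had every 3D array below every 2D array. CEP57 (-0.12) and CEP57L1 (-0.21) overlapped.

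Of the remaining CEP genes, CEP68 (-0.23) and CEP250 (-0.14), which link the centrosome's paired centrioles, lay below 0. The centriolar satellite gene CEP131 gave -0.30 ± 0.11 (adjusted p = 0.141) with no overlap, and CEP72 (0.034) and CEP126 (0.035) were near 0. CEP55, a midbody protein of the last step of cell division, read 8.14, 8.48 and 8.38 in 3D and 8.70, 8.28 and 8.12 in 2D (-0.036 ± 0.17, adjusted p = 0.936). CEP20 (0.15) and CEP170B (0.11) had all 3D arrays just above 2D. CEP85L (-0.37), CEP43 (-0.06), CEP295NL (-0.0074) and CEP70 (-0.0043) overlapped, and CEP85L and CEP295NL were the 2 members with mean levels under the median of all probe sets (4.33).

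Counted over all members, every 3D array lay below every 2D array for 15 (25.4%) and above for 4 (6.78%). Over all genes tested these shares were 15.3% and 13.8%. By family, the members lying wholly below were 6 IFT, 2 BBS and 7 CEP genes. The members lying wholly above were BBS1, BBS2, CEP20 and CEP170B, named after their values were seen.

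**Figure D3:**
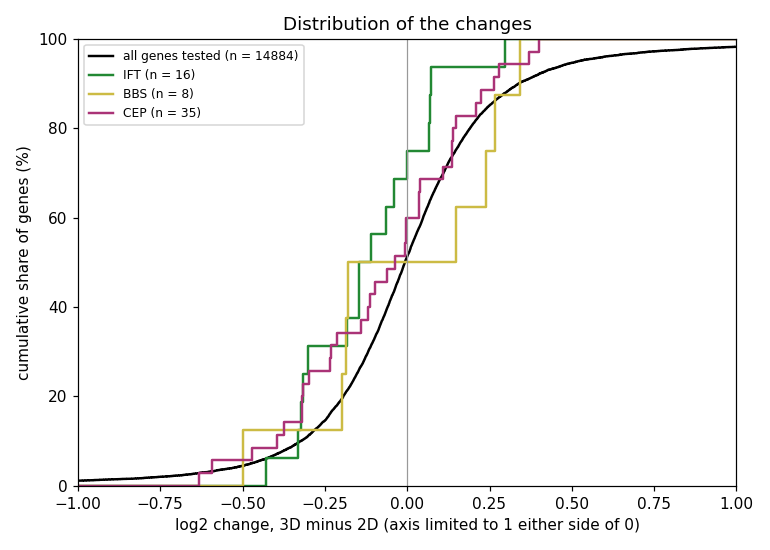
Cumulative share of genes (vertical axis, %) against the log2 change, 3D minus 2D (horizontal axis), for all 14884 genes tested and for the 16 IFT, 8 BBS and 35 CEP genes. The IFT line crosses 50% left of the line of all genes (medians -0.13 and -0.0074), the CEP line crosses it close to all genes (-0.036), and all 3 families lie between -0.63 and 0.40.

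The CEP genes varied together within each group. On 2D replicate 1 the CEP genes averaged 0.21 above their own means, and on 2D replicates 2 and 3 they averaged -0.037 and -0.066. On 3D replicate 1 they averaged -0.17, and on the other 3D arrays 0.041 and 0.026. The group means were 0.035 in 2D and -0.035 in 3D, and in each group replicate 1 lay farther from the other 2 arrays than these means lay from each other. 3D replicate 1 was the lowest 3D array for 25 of 35 CEP genes (71.4%, against 42.8% of all genes). Both this and 2D replicate 1 as the highest 2D array held for 21 (60.0%, against 18.8% of all genes). The 13 duplication genes gave 0.20, -0.11 and -0.20 in 2D and -0.14, 0.13 and 0.13 in 3D.

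On average, genes of mitosis and the cell cycle also were highest in 2D on replicate 1 and lowest in 3D on replicate 1. Their largest deviation was on 2D replicate 3, where the CEP genes averaged -0.066. Their group means, -0.13 in 2D and 0.13 in 3D, were opposite in sign to those of the CEP genes. The 22 measured genes of that list averaged 0.28, -0.12 and -0.54 in 2D and -0.10, 0.29 and 0.19 in 3D, and 0 of them passed (limma, 2 higher and 0 lower at an unadjusted p under 0.05). MKI67, a marker of proliferating cells, read 10.51, 9.73 and 9.47 in 2D and 9.82, 10.05 and 10.05 in 3D. The part of these genes, and of 3D replicate 1, in the CEP values was not tested. Without 3D replicate 1 the CEP median was 0.05, and without 2D replicate 1 it was 0.035, both opposite in sign to the value over all arrays. The IFT genes did not share this pattern, with 0.07, 0.09 and 0.02 in 2D and -0.07, -0.08 and -0.02 in 3D.

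**Figure D4:**
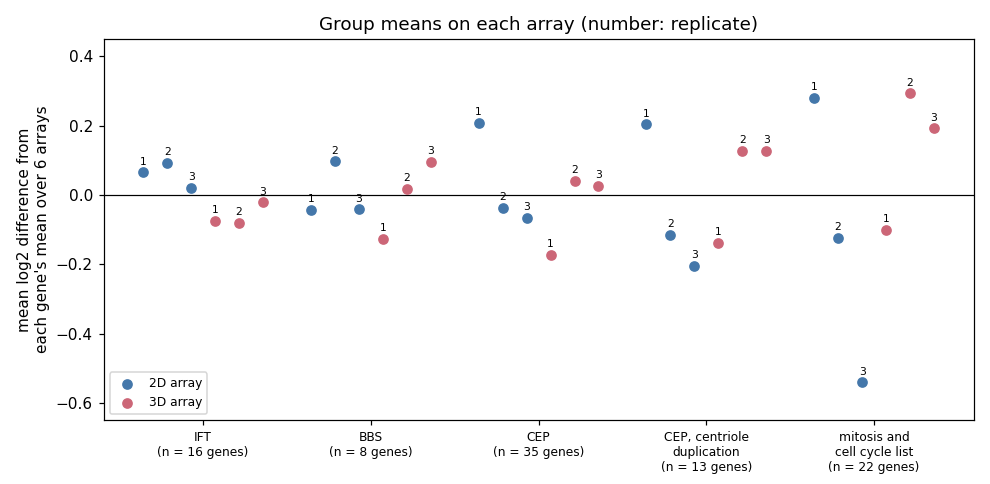
Mean log2 difference from each gene's own mean over the 6 arrays (vertical axis) on every array, for the 16 IFT, 8 BBS and 35 CEP genes, the 13 CEP genes of centriole duplication and 22 genes of mitosis and the cell cycle; blue points are 2D arrays, red points 3D arrays, and numbers are replicates. For CEP, duplication and mitosis genes 2D replicate 1 is the highest 2D point (0.21, 0.20 and 0.28) and 3D replicate 1 the lowest 3D point (-0.17, -0.14 and -0.10), while the IFT points of 2D and 3D do not overlap.

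Lists of related genes outside the symbol rule are read against the 10.0% of all genes that changed. The share called was 16.7% for transport motors and partners, 20.8% for the transition zone list and 18.8% for hedgehog genes. It was 10.0% for assembly triggers, 9.09% for disassembly and 6.67% for motile cilia. On the BBSome partner, centriole and mitosis lists 0 genes were called, and their unadjusted counts are given with each. For the other lists, genes lower and higher at an unadjusted p under 0.05 (limma) were as follows. Transport had 2 and 0, the transition zone 7 and 2, hedgehog 5 and 1, assembly 2 and 1, disassembly 3 and 2, and motile cilia 2 and 4. Over all 14884 genes the counts were 1777 and 1716. These lists are short, and the difference from all genes was not tested. Of 12 measured transport motors and partners 2 fell and 0 rose (median -0.16): WDR35, given above, and the kinesin-2 motor gene KIF3C (-0.70 ± 0.12 SE, n = 3, adjusted p = 0.0101). KIF3A, a motor subunit of the ciliary kinesin, gave -0.13 (adjusted p = 0.463). In the other direction KIF3B, of the same list and named after its values were seen, gave 0.16 (adjusted p = 0.387). Of 10 measured BBSome partners 0 passed (limma, 2 lower and 0 higher at an unadjusted p under 0.05, median -0.08).

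The transition zone and ciliary membrane list held 5 calls, 4 genes down and 1 up of 24 measured (median -0.07). ANKS6, of the inversin compartment at the base of the cilium, fell from 7.32 ± 0.05 to 6.54 ± 0.07 (SD, n = 3), a change of -0.78 ± 0.09 (SE, adjusted p = 0.00192). IQCB1, LCA5 (-0.50, adjusted p = 0.0292) and ALMS1 (-0.43, adjusted p = 0.0481), the last 2 named after their values were seen, also fell. TCTN3, a tectonic protein of the transition zone, rose from 8.34 ± 0.09 to 9.08 ± 0.23 (0.74 ± 0.13, adjusted p = 0.0127). Single left-out arrays ended the calls of IQCB1 (up to 0.111), LCA5 (up to 0.112), ALMS1 (up to 0.154) and TCTN3 (up to 0.0552), but not that of ANKS6.

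Of 27 measured centriole and pericentriolar genes outside the rule 0 passed (limma, 2 higher and 1 lower at an unadjusted p under 0.05, median 0.08). PCM1, the core protein of centriolar satellites, gave -0.13 (adjusted p = 0.479) and PCNT, a scaffold of the pericentriolar material, 0.12 (adjusted p = 0.595). PLK4 read 6.61, 7.43 and 7.03 in 3D and 6.85, 6.35 and 6.32 in 2D (0.52 ± 0.23 SE, adjusted p = 0.222), and again 3D replicate 1 was low and 2D replicate 1 high.

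Of 22 listed symbols of cilium assembly triggers 10 were measured, and 1 fell, the kinase gene TTBK2. It read 8.16, 8.32 and 8.36 in 3D and 8.93, 8.79 and 8.67 in 2D (-0.52 ± 0.11, adjusted p = 0.0241). Of 16 listed genes of cilium disassembly 11 were measured, and 1 fell, the histone demethylase gene KDM3A (-0.42, adjusted p = 0.0432). TTBK2 lost the call without 2D replicate 1 or 2 or 3D replicate 2 or 3 (up to 0.0782), and KDM3A without any single array (up to 0.132).

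Hedgehog signalling is read through the cilium, and 16 of its genes were measured, with 1 rise and 2 falls (median -0.12). The co-receptor gene BOC rose from 5.28 ± 0.18 to 6.56 ± 0.24 (SD, n = 3), a change of 1.28 ± 0.15 (SE, adjusted p = 0.00201). EVC, which passes the signal on at the base of the cilium, fell by 0.71 (± 0.09, adjusted p = 0.00216), and the transcription factor gene GLI2 fell from 6.36 ± 0.06 to 5.84 ± 0.15 (adjusted p = 0.0226, up to 0.0949 without single arrays). The pathway's target genes GLI1 (-0.16, adjusted p = 0.698) and PTCH1 (0.016, adjusted p = 0.956) did not pass.

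On the list of 42 genes of motile and multiciliated cells 30 were measured, and 2 rose and 0 fell (median -0.0055). They were the calcium-binding protein gene CAPS (1.78 ± 0.12 SE, n = 3, adjusted p = 0.000202) and the tubulin-binding protein gene TPPP3 (1.22 ± 0.16, adjusted p = 0.00292). FOXJ1, the master regulator of motile cilia, read 6.15, 5.91 and 5.52 in 3D and 5.99, 6.06 and 6.12 in 2D (-0.20 ± 0.16, adjusted p = 0.541). Of 9 defining markers of multiciliated cells 6 were measured and 0 passed (limma, 1 higher at an unadjusted p under 0.05), and their summed level ran from 29.25 to 30.23 in 2D and from 29.26 to 29.53 in 3D.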

How the data were processed

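Expression was measured on 1 array per sample, 3 samples per group. The authors deposited log2 values made with RMA, per the submitters' processing notes, which name no version or filter. That the scale is log2 was judged from the range of the values. The labels' protocol names a 3′ IVT kit with 100 ng of total RNA, whereas the annotation is that of a Human Gene ST array. RMA subtracts background, equalises the arrays' distributions and compresses changes of dim probe sets.

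Of 53617 probe sets 16098 carried 1 symbol, 0 several and 37519 none. Where a gene had several, the probe set of highest mean level stood for it, with no filter on level. The gene IDs of all 59 members were found in RefSeq (GRCh38.p14). Groups were compared with limma 3.58.1 in R 4.3.3 (lmFit, eBayes, two-sided), adjusting over all 14884 genes by Benjamini-Hochberg with a threshold of 0.05. The fit was tested on simulated data with independent noise. Such data lack the shared shifts of single arrays described above, so the simulation does not vouch for the calls. The number of arrays limits the precision.

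Members and lists were chosen with earlier results of these data known, so lists are described by counts and medians. Named with values were all members past the threshold, the 4 largest and 2 smallest changes of each family, all BBS genes, up to 3 genes past the threshold per related list and a fixed set of well-known genes. Genes of that set without a value in the text are not analysed here. IFT56, a member, was taken out of the list of transport partners, which also named it. Alternatives were repeated quantile normalization, array median centring, a filter on dim probe sets, other choices of probe set, the replicate number as a block, a trended robust variance and leaving out each array.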

Additional observations from a re-analysis of the deposited data

How the results depend on the processing

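The count of 4 members that fell was 8 with a filter keeping genes at or above the median of all probe sets (4.33), which tests 10789 genes, and 9 with a trended robust variance, where 1 member, BBS2, rose (adjusted p = 0.0454). The share of all genes called lower rose too, from 4.77% to 8.14% with the filter and 6.41% with the trended variance. The added genes were IFT20, IFT52, IFT81 and CEP63 in both, and CEP170 in the latter. Repeated quantile normalization gave 5, adding IFT81, and the other scaling and probe set choices gave 4. Leaving out single arrays gave 1 to 4 (lowest without 3D replicate 2 or 3D replicate 3, with 2 without 2D replicate 3) and 0 members that rose. In these 3 fits the share of all genes called lower was smaller too, at 2.34%, 2.39% and 2.69% in that order. The median of the IFT genes ran from -0.16 to -0.086 over all alternatives; that of the BBS genes ran from -0.077 to 0.086 and that of the CEP genes from -0.13 to 0.054, so neither held its sign. CEP290, CEP89, CEP95 and BBS5 lay below 0 in all 13 alternatives. Each has 1 probe set and groups that did not overlap, so most of these settings could not change the sign. Their keeping it therefore adds no support. The cause of the differences between settings was not tested.

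The replicate number as a block left 1 member that fell, CEP290 (adjusted p = 0.0438), and 760 called genes against 1488. Deviations of same-numbered arrays from their group means correlated at -0.28, -0.06 and -0.18. With 3 arrays per group these deviations depend on each other, so they cannot decide whether the numbers paired the samples. The labels do not say. Brightness limits CEP85L and CEP295NL, whose probe sets were dim.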

Other observations

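The symbol pattern also matches 3 pseudogenes, which were left out of every count. CEP170P1 gave 6.68, 6.61 and 6.57 in 3D and 7.32, 6.94 and 6.93 in 2D, without overlap (-0.44 ± 0.13 SE, n = 3, limma adjusted p = 0.0723). IFT122P3 gave 3.81, 3.75 and 3.84 in 3D and 4.04, 4.12 and 4.02 in 2D (-0.26 ± 0.09, adjusted p = 0.118), a direction opposite to that of IFT122. CEP192P1 read between 3.05 and 3.71 on all arrays and its groups overlapped.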
